A study of Mus musculus with 9 samples.

Results

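Dapl1, Tdrp, Igfbp4, Nsg2, Fam101b, Atp1b1, Pecam1, Btg1 and Btg2 are 9 genes that naive CD8 T cells transcribe and that were found at lower levels after priming. They were chosen by symbol from the 23936 genes with a symbol in the deposited table, for high levels in naive and low levels in primed cells or for an antiproliferative role. The naive and primed values therefore chose them, and the primed against naive differences are given below as a description without a test. RNA sequencing covered 9 libraries of OT-I cells, mouse CD8+ T cells with a transgenic receptor for an ovalbumin peptide. There were 3 MLN-primed libraries from the mesenteric lymph node (sample titles "oralmln"), 3 spleen-primed libraries from the spleen (titles "ivspleen") and 3 naive libraries from the spleen. Organ and the "oral" or "iv" of the titles change together between the primed groups, so their effects cannot be told apart. MLN-primed and naive libraries also differ in organ, so MLN-primed minus naive mixes organ with priming. Mouse age, the sorting gate, the agent used for priming and the time after it are not stated by the labels used. No label says that the libraries of a group are from separate animals, and a p-value here measures the spread among these 9 libraries alone, which may be technical.

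A naive T cell is quiescent. It keeps translation, metabolism and the cell cycle low until its receptor meets antigen, and priming replaces this state within a few divisions by growth, division and effector gene expression. Btg1 and Btg2 encode antiproliferative adaptors that recruit the CCR4-NOT deadenylase to messenger RNA and so shorten poly(A) tails, and mouse T cells without both lose quiescence. Pecam1 (CD31) is an adhesion molecule with inhibitory motifs that recruit phosphatases, and it is carried by naive T cells, endothelium, platelets and myeloid cells. Igfbp4 is a secreted protein that binds insulin-like growth factors, Atp1b1 is the beta subunit that brings the sodium pump to the cell surface, and Fam101b, now named Rflnb, is a refilin that binds filamin and shapes actin. Nsg2 belongs to a family of endosomal proteins studied mostly in neurons, Tdrp is named for a role in mouse testis development, and Dapl1 is a small relative of the death-associated protein DAP that is found on dormant ribosomes of zebrafish and Xenopus eggs.

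Promoter sequences were available in RefSeq (GRCm38.p6) for 7 of the 9 genes, in 8 windows that reach from 250 bases before the start site to 50 bases after it. The windows of Dapl1 and Btg1 are shown because they held the core motif of FOXO factors, which maintain naive T cells. Both are on the plus strand, Dapl1 at chr2:59484403-59484702 and Btg1 at chr10:96616751-96617050, written 5′ to 3′ with the motif in capitals:
Dapl1: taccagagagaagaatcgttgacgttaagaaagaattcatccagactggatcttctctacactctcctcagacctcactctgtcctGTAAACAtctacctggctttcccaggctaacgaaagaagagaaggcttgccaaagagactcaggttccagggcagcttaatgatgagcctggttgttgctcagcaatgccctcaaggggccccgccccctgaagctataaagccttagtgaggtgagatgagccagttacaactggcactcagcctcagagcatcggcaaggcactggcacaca
Btg1: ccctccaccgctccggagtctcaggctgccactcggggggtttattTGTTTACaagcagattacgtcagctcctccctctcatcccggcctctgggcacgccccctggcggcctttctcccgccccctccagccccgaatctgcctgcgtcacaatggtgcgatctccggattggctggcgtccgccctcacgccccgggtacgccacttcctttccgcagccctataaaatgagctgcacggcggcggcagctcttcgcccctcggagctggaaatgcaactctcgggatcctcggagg
The FOXO core searched was GTAAACA on either strand. It lay at bases -164 to -158 of Dapl1 as written and at -204 to -198 of Btg1 on the other strand, counted from the start site. It was in 2 of the 8 windows of these genes and in 3.65% of 32851 windows of all genes in the reference. The KLF core CACCC was in 4 of the 8 windows, of Nsg2, Fam101b, Atp1b1 and Igfbp4, against 57.5% of all windows. The TCF and LEF core CTTTGA and the ETS core CCGGAAG were in 0 of the 8 windows, against 16% and 8.86% of all windows. These matches describe letters in a window and not factor binding. Transcripts of Foxo1, which was chosen for naming after its values were seen, were at 13 ± 2.46 FPKM in MLN-primed, 14.6 ± 2.42 FPKM in spleen-primed and 58.4 ± 6.33 FPKM in naive cells (mean ± SD, n = 3, as for all values with an error in FPKM below).

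FPKM are fragments per kilobase of transcript and scaled to the mapped fragments of the library, as deposited. Totals were 612887 to 720165 FPKM per library, and 9469 to 9667 genes reached 1 FPKM. The read depth behind the values is unknown. A gene was tested when 3 or more libraries held 1 FPKM of it or more, which left 10185 genes, and all 9 passed. Tdrp and Igfbp4 passed through the naive libraries alone, since no primed library reached 1 FPKM, and Fam101b and Atp1b1 did not reach it in any spleen-primed library. The CD8 T cell label was met by all 8 of its markers, with a summed level of 2076 to 2152 FPKM in MLN-primed, 3034 to 3141 FPKM in spleen-primed and 3974 to 4305 FPKM in naive libraries. Within groups, libraries differed by a trend with transcript length, whose outermost slopes per doubling of length, relative to the group mean, were -0.0888 on the log2 scale in MLN-primed 1 and 0.0779 in spleen-primed 3.

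**Figure D1:**
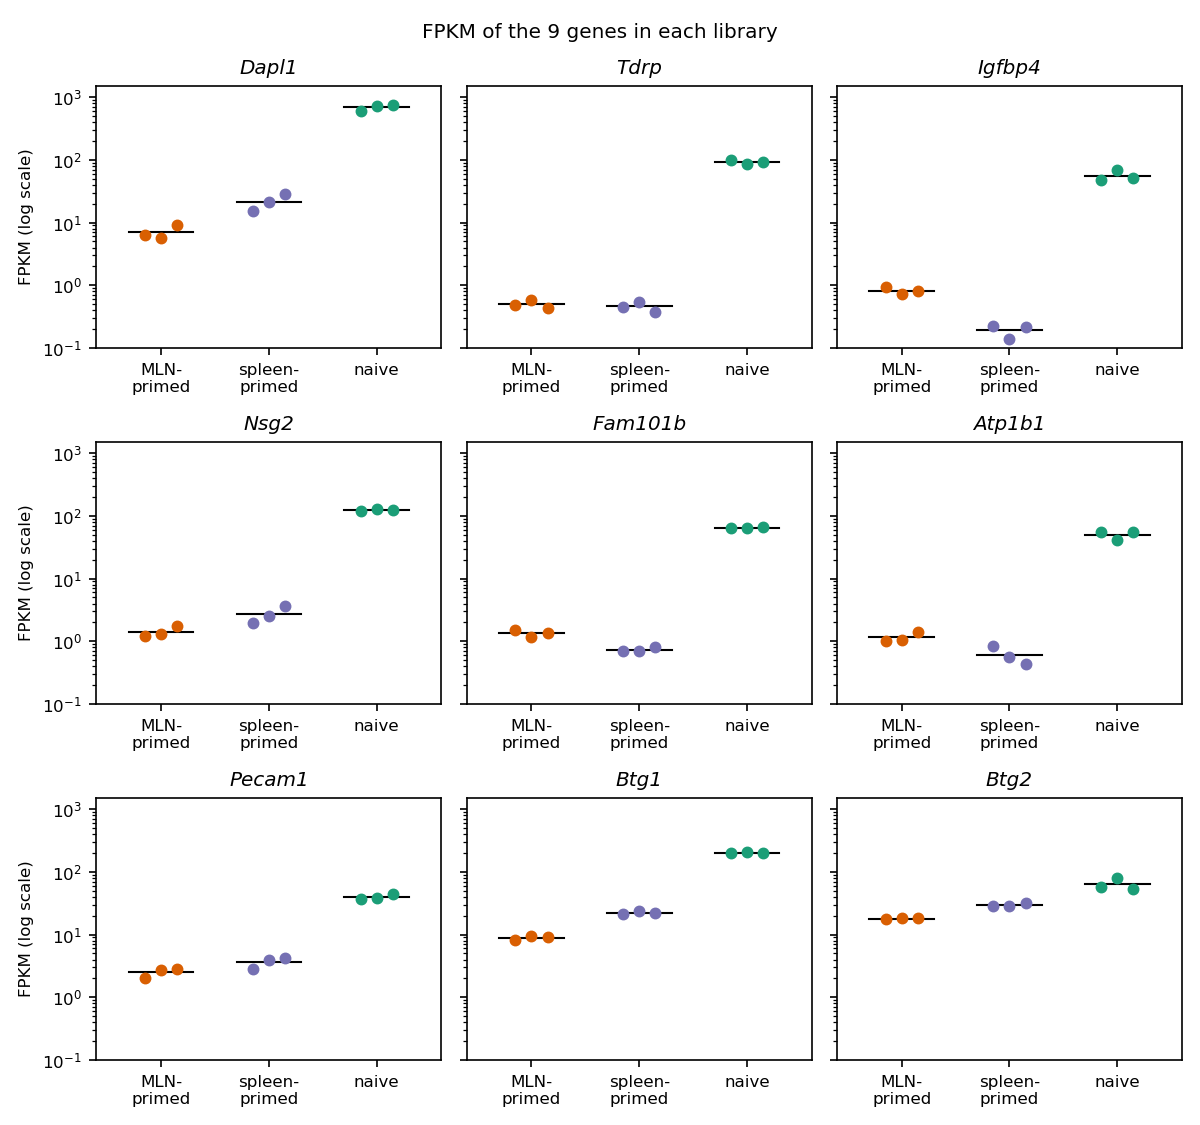
FPKM on a log scale in each of the 9 libraries, with 1 panel per gene, 3 points per group and a line at the group mean. In every panel the 3 naive points lie above all 6 primed points. Igfbp4 and Fam101b are higher in MLN-primed than in spleen-primed libraries, while Dapl1, Nsg2, Btg1 and Btg2 are lower.

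In each of the 9 genes the highest primed library lay below the lowest naive library. This is the contrast that chose the genes, and 34.6% of all tested genes showed the same pattern in MLN-primed and 33.7% in spleen-primed cells. Primed cells held between 0.349% (Igfbp4, spleen-primed) and 46.6% (Btg2, spleen-primed) of the naive mean. The median difference in log2(FPKM + 1) over the 9 genes was -4.82 for MLN-primed minus naive and -4.99 for spleen-primed minus naive, against medians of 0.15 and 0.10 over all tested genes. Both comparisons share the naive libraries. In bulk RNA, fewer cells that carry a transcript and less of it per cell cannot be told apart.

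Dapl1 was the most abundant of these transcripts in naive cells and ranked 117th among all tested genes there. It was at 6.37, 5.62 and 9.03 FPKM in MLN-primed libraries, at 15.4, 21.1 and 28.4 FPKM in spleen-primed and at 597, 711 and 740 FPKM in naive libraries. The 3 groups did not overlap, and spleen-primed cells lay between MLN-primed and naive cells. MLN-primed cells held 1.03% and spleen-primed cells 3.17% of the naive mean. By the difference in log2(FPKM + 1), Dapl1 was the second lowest of 10185 genes in MLN-primed minus naive (-6.43) and the tenth lowest in spleen-primed minus naive (-4.95). The gene lies at chr2:59484653-59505020 on the plus strand of GRCm38, and its transcript of 573 bases is the shortest among these genes.

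Tdrp kept the smallest share of its naive level among the 9 genes in MLN-primed cells. It was at 0.490, 0.579 and 0.440 FPKM in MLN-primed libraries, at 0.456, 0.550 and 0.379 FPKM in spleen-primed and at 98.7, 84.6 and 93.3 FPKM in naive libraries. Both primed groups overlapped and held 0.546% (MLN-primed) and 0.501% (spleen-primed) of the naive mean. In spleen-primed minus naive cells it had the lowest difference of all 10185 tested genes (-5.99), and in MLN-primed minus naive cells the fourth lowest (-5.95). These ranks are for a pseudocount of 1. With 0.1, Igfbp4 (-7.57) lay below Tdrp (-7.37) in spleen-primed minus naive. The gene lies at chr8:13952008-13975478 of GRCm38.

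Nsg2 was at 1.20, 1.29 and 1.73 FPKM in MLN-primed libraries, at 1.97, 2.50 and 3.70 FPKM in spleen-primed and at 120.03, 128 and 124 FPKM in naive libraries. In naive cells its SD was 3.06% of the mean, below which only Fam101b (2.64%) and Btg1 (2.73%) stood among the 9. The groups did not overlap. MLN-primed cells held 1.14% and spleen-primed cells 2.2% of the naive mean. The gene lies at chr11:31999704-32059211 on the plus strand of GRCm38.

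Igfbp4 was higher in the MLN-primed group than in the spleen-primed group, against the order of Dapl1 and Nsg2. It was at 0.927, 0.721 and 0.797 FPKM in MLN-primed libraries, at 0.228, 0.137 and 0.220 FPKM in spleen-primed and at 48.4, 68.6 and 50.7 FPKM in naive libraries. The groups did not overlap, and MLN-primed cells held 1.46% and spleen-primed cells 0.349% of the naive mean. Fam101b had the same order, at 1.5, 1.16 and 1.34 FPKM in MLN-primed libraries, at 0.693, 0.702 and 0.812 FPKM in spleen-primed and at 63.8, 63.7 and 66.7 FPKM in naive libraries. Its share of the naive mean was 2.06% in MLN-primed and 1.14% in spleen-primed cells. Both genes are on chromosome 11 of GRCm38, Igfbp4 at chr11:99040005-99052655 on the plus strand and Fam101b at chr11:76019194-76027782 on the minus strand.

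Atp1b1 was at 1.02, 1.05 and 1.42 FPKM in MLN-primed libraries, at 0.850, 0.552 and 0.431 FPKM in spleen-primed and at 54.3, 40.5 and 55.8 FPKM in naive libraries. All MLN-primed values lay above all spleen-primed values, with 2.32% of the naive mean in MLN-primed and 1.22% in spleen-primed cells. The gene lies at chr1:164437099-164458355 on the minus strand of GRCm38. Pecam1 was at 2, 2.75 and 2.87 FPKM in MLN-primed libraries, at 2.84, 3.88 and 4.2 FPKM in spleen-primed and at 37.0, 37.8 and 43.5 FPKM in naive libraries. The primed groups overlapped, and primed cells kept more of it than of the genes above, 6.44% of the naive mean in MLN-primed and 9.23% in spleen-primed cells. The gene lies at chr11:106654213-106715281 of GRCm38.

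Btg1 and Btg2 stayed the most abundant of these transcripts after priming, apart from Dapl1, whose range overlapped that of Btg1 in both primed groups. Btg1 was at 8.24, 9.33 and 9.29 FPKM in MLN-primed libraries, at 21.2, 24.1 and 21.7 FPKM in spleen-primed and at 196, 207 and 200.5 FPKM in naive libraries. Btg2 was at 17.5, 18.2 and 18.2 FPKM in MLN-primed libraries, at 28.9, 28.9 and 31.6 FPKM in spleen-primed and at 58.0, 80.2 and 53.8 FPKM in naive libraries. In both genes the groups did not overlap and stood in the order MLN-primed, spleen-primed, naive. The shares of the naive mean differed between the paralogs. MLN-primed cells held 4.45% of the naive level of Btg1 and 28.1% of that of Btg2, and spleen-primed cells held 11.1% of Btg1 and 46.6% of Btg2. Naive cells had more Btg1 than Btg2 in every library, while every primed library had more Btg2 than Btg1. Btg1 lies at chr10:96617001-96622813 on the plus strand and Btg2 at chr1:134074865-134079155 on the minus strand of GRCm38.

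**Figure D2:**
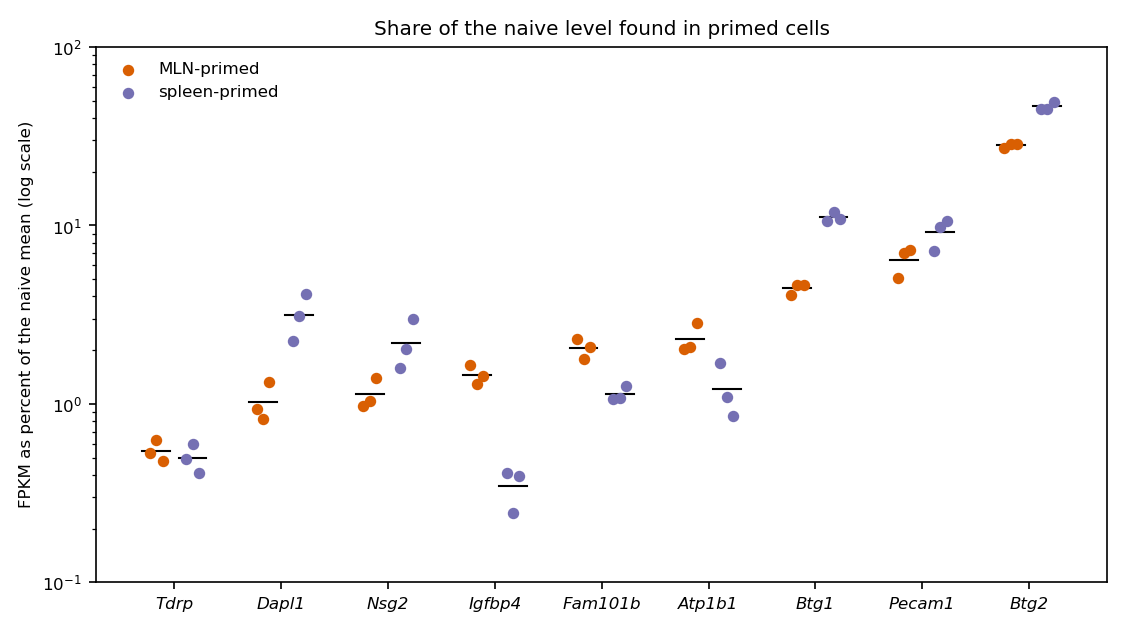
FPKM of each primed library as a percent of the naive mean of the same gene, on a log scale, with 3 points per group and a line at the mean. Genes run from Tdrp, with 0.546% in MLN-primed and 0.501% in spleen-primed cells, to Btg2, with 28.1% in MLN-primed and 46.6% in spleen-primed cells.

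The order of levels differed between groups. In MLN-primed cells Btg2 was followed by Btg1 and Dapl1, whose ranges overlapped, then by Pecam1, by Nsg2, Fam101b and Atp1b1, of which neighbours overlapped, and by Igfbp4 and Tdrp, which stood apart. In spleen-primed cells Btg2 was followed by Btg1 and Dapl1, which overlapped, by Pecam1 and Nsg2, which overlapped, by Fam101b, Atp1b1 and Tdrp, of which neighbours overlapped, and by Igfbp4 alone. In naive cells Dapl1, Btg1, Nsg2 and Tdrp stood apart in that order, and Fam101b, Btg2, Igfbp4, Atp1b1 and Pecam1 followed with overlap between each and the next.

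Markers of other cell types were summed per library. Endothelial markers summed to 8.69 to 12.3 FPKM in MLN-primed, 3.95 to 4.91 FPKM in spleen-primed and 0.287 to 0.713 FPKM in naive libraries. Egfl7 was the single one of these 10 to reach a mean of 1 FPKM, in primed cells, and Emcn was listed at 0 in every library. The order of the sum was that of Egfl7, at 9.5 FPKM in MLN-primed, 4.13 FPKM in spleen-primed and 0.329 FPKM in naive cells, and of Cdh5. Kdr, Vwf, Esam and Flt1 were highest in naive cells, the largest of them Esam at 0.0426 FPKM. Platelet markers summed to 0.0345 to 0.0777 FPKM in MLN-primed, 0.154 to 0.264 FPKM in spleen-primed and 0.477 to 0.745 FPKM in naive libraries, with none of the 7 at a mean of 1 FPKM and with Pf4, Ppbp and Gp9 listed at 0 in MLN-primed libraries. Stromal markers summed to 0.0445 to 0.0539 FPKM in MLN-primed, 0.0337 to 0.0788 FPKM in spleen-primed and 0.471 to 0.704 FPKM in naive libraries. None of those 9 reached a mean of 1 FPKM, and Col3a1, Pdgfra and Pdpn were listed at 0 in every library. The 10 myeloid markers summed to 15.4 to 18.6 FPKM in MLN-primed, 45.8 to 48.7 FPKM in spleen-primed and 4.44 to 16.2 FPKM in naive libraries, of which 2 in MLN-primed, 2 in spleen-primed and 3 in naive cells reached a mean of 1 FPKM, with Emr1 and Cd14 listed at 0 in MLN-primed libraries. Most of the primed sums came from Itgam (9.3 FPKM in MLN-primed, 30.3 in spleen-primed and 0.326 in naive cells) and Cd68 (7.69, 15.6 and 1.06). Lyz2, C1qa, C1qb, Csf1r, Emr1 and Fcgr1 were instead highest in naive cells, as the 9 genes were. Lyz2 was at 0.17 FPKM in MLN-primed, 0.863 FPKM in spleen-primed and 5.79 FPKM in naive cells. Dendritic cell and MHC class II markers other than Xcr1 were highest in naive cells, as the 9 genes were. Xcr1 was at 0.472 FPKM in MLN-primed, 0.592 FPKM in spleen-primed and 0.537 FPKM in naive cells. With Xcr1, this list summed to 3.43 to 4.38 FPKM in MLN-primed, 3.47 to 7.85 FPKM in spleen-primed and 94.2 to 166 FPKM in naive libraries. In naive cells 4 of the 9 markers, among them Cd74 at 55.4 FPKM, reached a mean of 1 FPKM. Flt3 and Clec9a were listed at 0 in MLN-primed and Siglech in spleen-primed libraries. B cell markers summed to 11.9 to 15.8 FPKM in MLN-primed, 7.82 to 9.27 FPKM in spleen-primed and 11.4 to 15 FPKM in naive libraries, of which Cd79b gave a mean of 12.3 FPKM in MLN-primed, 7.02 FPKM in spleen-primed and 12.5 FPKM in naive cells, with Pax5 listed at 0 in naive libraries. The sum of the CD4 T cell markers was also highest in naive libraries, through Cd40lg. These 4 summed to 8.53 to 11.6 FPKM in MLN-primed, 9.31 to 13.5 FPKM in spleen-primed and 15.1 to 18.3 FPKM in naive libraries, of which Cd40lg gave a mean of 14.9 FPKM and Cd4 0.212 FPKM in naive cells. Zbtb7b had the opposite direction, at 3.83 FPKM in MLN-primed, 4.88 FPKM in spleen-primed and 0.405 FPKM in naive cells. Foxp3 was at 0.772 FPKM in MLN-primed, 0.829 FPKM in spleen-primed and 0.755 FPKM in naive cells. The 5 red cell markers varied within groups, with sums of 0.346 to 43.1 FPKM in MLN-primed, 1.66 to 18.0 FPKM in spleen-primed and 4.8 to 39.5 FPKM in naive libraries. The part of such cells in the 9 genes was not tested.

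The difference between the primed groups was not the contrast that chose the genes and was tested with limma over all 10185 genes, although earlier results of these data were known. It asks whether MLN-primed and spleen-primed cells hold different amounts of naive-state transcripts. Of the 9 genes, 4 were lower (Dapl1, Btg1, Btg2 and Nsg2) and 2 higher (Igfbp4 and Fam101b) in the MLN-primed group, while Tdrp, Atp1b1 and Pecam1 did not pass. Among all tested genes 13.1% were lower and 17.3% higher. All MLN-primed libraries lay below all spleen-primed ones in those 4 genes and above them in Igfbp4, Fam101b and Atp1b1, against 21% and 25.1% of all tested genes. The median difference of the 9 genes was -0.39, against 0.03 over all tested genes.

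Btg1 fell to 8.95 ± 0.617 FPKM in MLN-primed cells, against 22.3 ± 1.52 FPKM in spleen-primed cells (-1.23 ± 0.07, difference in log2(FPKM + 1) with SE; adjusted p = 1.18e-05, limma). Dapl1 was at 7.01 ± 1.79 FPKM in MLN-primed against 21.6 ± 6.5 FPKM in spleen-primed cells (-1.48 ± 0.21, adjusted p = 8.02e-04). Btg2 was at 18.0 ± 0.44 FPKM in MLN-primed against 29.8 ± 1.56 FPKM in spleen-primed cells (-0.70 ± 0.13, adjusted p = 0.00297). These 3 differences are larger than the spread between libraries, and each MLN-primed library lay below each spleen-primed one. Nsg2 was at 1.41 ± 0.286 FPKM in MLN-primed against 2.72 ± 0.887 FPKM in spleen-primed cells (-0.61 ± 0.16, adjusted p = 0.0149), and without MLN-primed 1 and spleen-primed 3 its difference was -0.37.

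Igfbp4 was higher at 0.815 ± 0.104 FPKM in MLN-primed cells, against 0.195 ± 0.0504 FPKM in spleen-primed cells (0.60 ± 0.13, adjusted p = 0.00635). The ratio of means was 4.18, which the log2(FPKM + 1) scale understates, and with a pseudocount of 0.1 the log2 difference was 1.64. Fam101b was at 1.33 ± 0.168 FPKM in MLN-primed against 0.736 ± 0.0666 FPKM in spleen-primed cells (0.42 ± 0.08, adjusted p = 0.00438; 0.77 with a pseudocount of 0.1). Both genes were higher in 3 of 3 MLN-primed libraries than in any spleen-primed library, at levels between 0.137 and 1.5 FPKM.

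Atp1b1 did not pass, at 1.17 ± 0.224 FPKM in MLN-primed against 0.611 ± 0.215 FPKM in spleen-primed cells (0.43 ± 0.15, adjusted p = 0.0509). It passed under 10 of 20 alternatives, among them without spleen-primed 1 (0.53) or naive 2 (0.43) and with the replicate number as a block (0.43). Pecam1 did not pass, at 2.54 ± 0.468 FPKM in MLN-primed against 3.64 ± 0.71 FPKM in spleen-primed cells (-0.39 ± 0.14, adjusted p = 0.0626). It passed under 5 of 20 alternatives, among them median-of-ratios scaling (-0.42), the replicate block (-0.39) and the fit without spleen-primed 1 (-0.52), and its difference was -0.18 without MLN-primed 1 and spleen-primed 3. Tdrp passed under 0 of 20, at 0.503 ± 0.0706 FPKM in MLN-primed against 0.462 ± 0.0859 FPKM in spleen-primed cells (0.04 ± 0.09, adjusted p = 0.776).

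**Figure D3:**
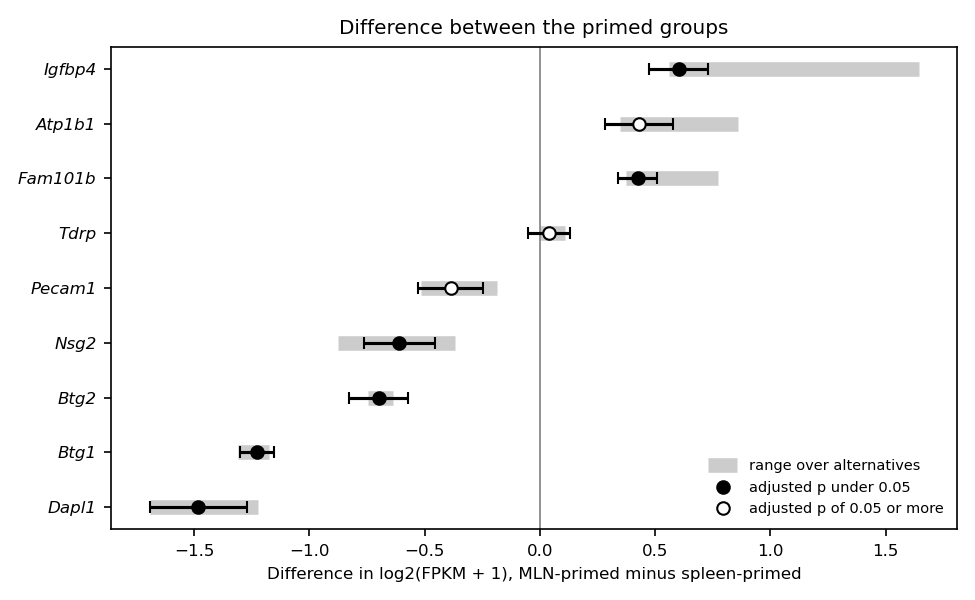
Difference in log2(FPKM + 1) for MLN-primed minus spleen-primed cells, with the standard error of the limma fit as bars and the range over 20 alternatives in grey. Filled points passed at an adjusted p of 0.05. Dapl1, Btg1, Btg2 and Nsg2 lie to the left of 0, and Igfbp4 and Fam101b to the right.

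The library of a group in which a gene was highest was shared by several genes. Spleen-primed 3 had the highest value of Dapl1, Nsg2, Fam101b, Pecam1 and Btg2 among spleen-primed libraries, and MLN-primed 3 that of Dapl1, Nsg2, Atp1b1 and Pecam1 among MLN-primed libraries. Spleen-primed 3 had the most positive length slope of its group (0.0779), whereas MLN-primed 3, at 0.0263, lay between MLN-primed 1 and MLN-primed 2. The part of the length trend in these values was not tested beyond the fits without those libraries and without the trend, in which all 6 calls held.

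The other genes of the BTG and TOB family and of the deadenylation machinery gave a context for Btg1 and Btg2. Of 20 tested genes besides the pair, 8 were higher and 5 lower in MLN-primed than in naive cells, and 8 were higher and 4 lower in spleen-primed than in naive cells. Over all tested genes 45.5% were higher and 33.2% lower in MLN-primed minus naive, and 43.1% were higher and 32.7% lower in spleen-primed minus naive. The lower counts were 9 in both under quantile normalisation, and 7 in spleen-primed cells under median-of-ratios scaling. Tob1, an antiproliferative adaptor that also binds CCR4-NOT, was at 9.53 ± 0.199 FPKM in MLN-primed, 13.6 ± 0.986 FPKM in spleen-primed and 25.3 ± 3.45 FPKM in naive cells. It had the order of Btg1 and Btg2 and was lower in MLN-primed cells, set against spleen-primed ones (-0.47 ± 0.10, limma, adjusted p = 0.00726). Tob2, of the same family, was at 8.7 ± 0.421 FPKM in MLN-primed, 11.2 ± 1.39 FPKM in spleen-primed and 20.6 ± 5.05 FPKM in naive cells, lower in both primed groups than in naive (adjusted p = 9.43e-05 for MLN-primed and 0.00108 for spleen-primed). Btg3 did not pass in any of the 3 comparisons, at 6.92 ± 0.884 FPKM in MLN-primed, 7.02 ± 0.943 FPKM in spleen-primed and 9.03 ± 1.95 FPKM in naive cells. It was lower against naive in both primed groups under 4 alternatives, among them median-of-ratios scaling (-0.48 for MLN-primed and -0.42 for spleen-primed) and the fit without naive 3 (-0.49 for MLN-primed and -0.47 for spleen-primed). Btg4 was listed at 0 in all libraries.

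Prmt1 and Pabpc4 had the largest rises of this list in MLN-primed minus naive cells and also rose in spleen-primed cells (limma, adjusted p from 8.62e-09 to 1.37e-04). Partner genes did not all rise. Pabpc1 did not pass in any comparison, at 671 ± 34.4 FPKM in MLN-primed, 598 ± 32.3 FPKM in spleen-primed and 658 ± 30.2 FPKM in naive cells. Neither did Cnot8, at 35 ± 0.29 FPKM in MLN-primed, 36.1 ± 1.35 FPKM in spleen-primed and 36.6 ± 1.8 FPKM in naive cells. Prmt1, an arginine methyltransferase that binds Btg1 and Btg2, was at 209 ± 14.6 FPKM in MLN-primed, 125 ± 2.0 FPKM in spleen-primed and 64.3 ± 3.13 FPKM in naive cells, and was higher in MLN-primed cells, set against spleen-primed ones (0.73 ± 0.07, limma, adjusted p = 9.10e-05). Pabpc4, a cytoplasmic poly(A)-binding protein, was at 86.1 ± 1.62 FPKM in MLN-primed, 40.7 ± 2.38 FPKM in spleen-primed and 26.6 ± 3.25 FPKM in naive cells (1.07 ± 0.09 between the primed groups, adjusted p = 4.86e-05). The regulatory subunit gene Pan3, of the PAN2-PAN3 deadenylase, was lower in primed cells, at 3.94 ± 1.6 FPKM in MLN-primed, 3.11 ± 1.22 FPKM in spleen-primed and 12.2 ± 1.61 FPKM in naive cells. Between the primed groups, 5 of the 20 were higher and 1 lower, against 17.3% and 13.1% of all tested genes. The higher count was 3 under median-of-ratios scaling, quantile normalisation and without spleen-primed 1, spleen-primed 2, MLN-primed 2 or MLN-primed 3, and 8 without both outermost libraries. The lower count was 2 under 6 alternatives, among them both scalings and the fits without naive 1, naive 2 or MLN-primed 2.

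**Figure D4:**
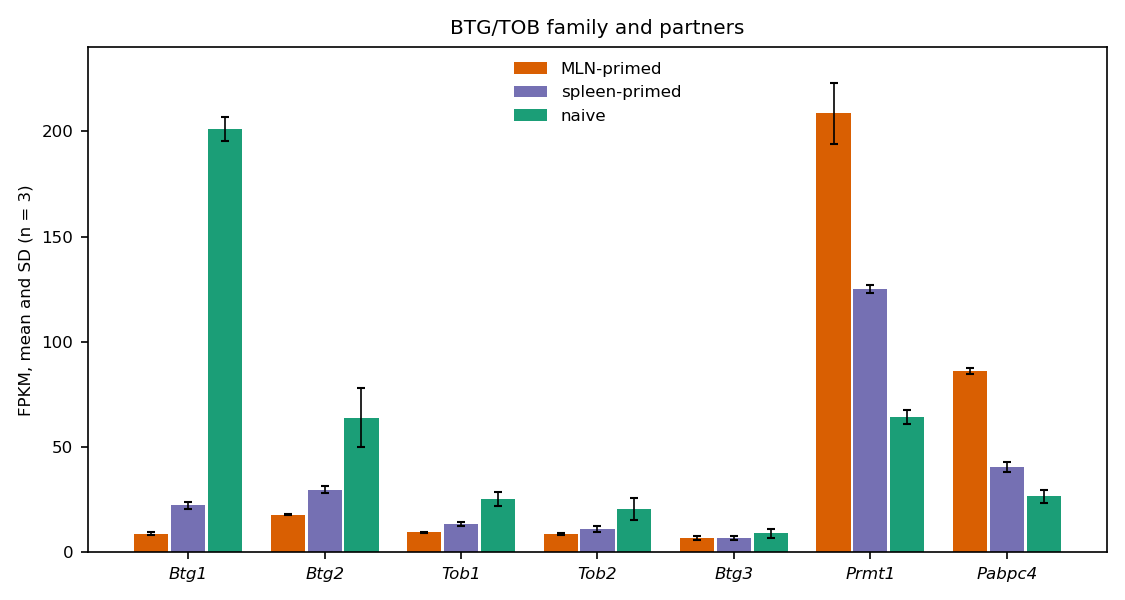
Mean FPKM with SD (n = 3) of Btg1, Btg2, their tested relatives Tob1, Tob2 and Btg3, and of Prmt1 and Pabpc4. The last pair had the largest rises of the list in MLN-primed minus naive cells. MLN-primed, spleen-primed and naive bars run from left to right. Btg1, Btg2, Tob1 and Tob2 step up from MLN-primed to naive, and Prmt1 and Pabpc4 step down.

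The sodium pump list put Atp1b1 beside the other subunits. Of 14 sodium pump subunits and FXYD regulators besides Atp1b1, 4 were tested. In MLN-primed minus naive cells 4 of these were lower, against 33.2% of all tested genes, and in spleen-primed minus naive cells 3, against 32.7%. Fxyd7, counted as lower in both, needed the naive libraries to pass the filter, which favoured its fall. Its highest values were 0.646 FPKM in MLN-primed, 1.01 FPKM in spleen-primed and 5.12 FPKM in naive libraries. Atp1b3, the other beta subunit above 1 FPKM, was far more abundant than Atp1b1, at 422 ± 19.7 FPKM in MLN-primed, 468 ± 16.7 FPKM in spleen-primed and 724 ± 40.2 FPKM in naive cells. It was lower by less than a factor of 2 (-0.78 ± 0.07 for MLN-primed and -0.63 ± 0.07 for spleen-primed minus naive, adjusted p = 2.49e-06 and 1.48e-05). Fxyd5, a pump regulator, was lower in MLN-primed cells, set against spleen-primed ones, at 355 ± 11.9 FPKM in MLN-primed against 484 ± 5.61 FPKM in spleen-primed cells (-0.45 ± 0.06, adjusted p = 7.07e-04).

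Igfbp4 was the single insulin-like growth factor binding protein above 1 FPKM in naive cells. Igfbp6, of the same family, was lowest in naive cells, at 2.19 ± 0.334 FPKM in MLN-primed, 1.53 ± 0.366 FPKM in spleen-primed and 0.0232 ± 0.0401 FPKM in naive cells. Igfbp1, Igfbp2 and Igfbp5 were listed at 0 in all libraries. Irs2, the gene of an adaptor downstream of insulin and insulin-like growth factor receptors, was at 0.042 ± 0.00997 FPKM in MLN-primed, 0.0217 ± 0.0136 FPKM in spleen-primed and 5.45 ± 2.33 FPKM in naive cells. Of 16 genes of the growth factor axis besides Igfbp4, 5 were tested. Of these, 3, Irs2 among them, reached 1 FPKM in naive libraries alone and 1, Igfbp6, in primed libraries alone, so that their direction against naive was fixed by the filter and is not counted. Between the primed groups 0 were higher (1 at an unadjusted p under 0.05, limma) and 1 lower, against 17.3% and 13.1% of all tested genes. Igfbp6 was the gene that passed as higher with the replicate block (0.34), with the length trend removed (0.35) and without spleen-primed 2 (0.45) or MLN-primed 3 (0.43). Igf2r, a scavenger receptor for one of the factors, was the lower one (12.9 ± 2.75 FPKM in MLN-primed against 27.5 ± 3.0 FPKM in spleen-primed cells, -1.05 ± 0.14, adjusted p = 5.65e-04). It was at 13.4 ± 0.745 FPKM in naive cells. Against naive it did not pass in MLN-primed cells (-0.07, limma, adjusted p = 0.644) and was higher in spleen-primed cells (0.98, adjusted p = 1.11e-04).

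Of 7 relatives and partners of Fam101b, Nsg2 and Dapl1, 3 were tested, and all 3 were higher in both primed groups than in naive cells. Over all tested genes 45.5% were higher in MLN-primed and 43.1% in spleen-primed minus naive. The filamin gene Flna, a partner of refilins, was at 258 ± 22.9 FPKM in MLN-primed, 306 ± 16.1 FPKM in spleen-primed and 124 ± 2.29 FPKM in naive cells. Dap, the relative of Dapl1, was at 93.7 ± 8.42 FPKM in MLN-primed, 139 ± 3.17 FPKM in spleen-primed and 79.2 ± 7.29 FPKM in naive cells. Its rise in MLN-primed cells (0.24) ended under median-of-ratios scaling (0.07) and turned to -0.35 under quantile normalisation. It also ended with only both groups fitted (0.24), with the length trend removed (0.06) and without naive 1, naive 2, MLN-primed 2 or MLN-primed 3 (0.19 to 0.22). Fam101a and Nsg1, the paralogs of Fam101b and Nsg2, stayed below 0.12 FPKM in all libraries. Between the primed groups Dap was lower (-0.57 ± 0.09, adjusted p = 0.00107), as was Flna (-0.25), a call that ended under 7 alternatives, among them without spleen-primed 2, spleen-primed 3, MLN-primed 1 or MLN-primed 3 (-0.20 to -0.24). Of 7 tested partners of Pecam1 and related inhibitory receptors, 4 were higher and 1 lower in MLN-primed minus naive, and 5 higher and 1 lower in spleen-primed minus naive. Of the 7, 2 counted as higher in both comparisons reached 1 FPKM in primed libraries alone, so the filter fixed their direction. Over all tested genes 45.5% were higher and 33.2% lower in MLN-primed minus naive, and 43.1% higher and 32.7% lower in spleen-primed minus naive. Between the primed groups 0 of the 7 passed in either direction (limma, 0 higher and 0 lower at an unadjusted p under 0.05). Lair1, a collagen receptor with inhibitory motifs, was at 8.6 ± 0.232 FPKM in MLN-primed, 9.41 ± 0.46 FPKM in spleen-primed and 2.62 ± 0.165 FPKM in naive cells, and Cd72, an inhibitory receptor known mostly from B cells, at 6.14 ± 0.164 FPKM in MLN-primed, 6.26 ± 0.839 FPKM in spleen-primed and 23.1 ± 1.35 FPKM in naive cells. The count of higher genes in spleen-primed cells was 3 under quantile normalisation, with a filter of 5 FPKM and without naive 2 or spleen-primed 3, and that in MLN-primed cells was 2 with that filter.

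Known genes of T cell quiescence and the naive state were mostly lower in primed cells. Of 22 tested genes, 1 of which reached 1 FPKM in naive libraries alone, 19 were lower and 0 higher in each primed group against naive, and between the primed groups 11 were lower and 1 higher, with a median difference of -0.34. Over all tested genes 33.2% were lower and 45.5% higher in MLN-primed minus naive, and 32.7% lower and 43.1% higher in spleen-primed minus naive. Between the primed groups 13.1% of all tested genes were lower and 17.3% higher, with a median of 0.03. The lower count was 7 without spleen-primed 2, without spleen-primed 3 and without both outermost libraries, and the higher count was 0 without spleen-primed 1 or MLN-primed 3 and 4 without both outermost libraries. Ccr7, the chemokine receptor for lymph node entry, was at 11.5 ± 2.02 FPKM in MLN-primed, 8.05 ± 0.972 FPKM in spleen-primed and 346 ± 16.0 FPKM in naive cells, the order of Igfbp4, and its call between the primed groups (0.46) ended without spleen-primed 1 (0.38) or MLN-primed 3 (0.41). Proliferation genes rose in 20 of 20 tested cases in both primed groups, but 6 of the 20 passed the filter through primed libraries alone. Birc5, needed for chromosome segregation, was at 364 ± 8.56 FPKM in MLN-primed, 359 ± 16.3 FPKM in spleen-primed and 1.96 ± 0.46 FPKM in naive cells. Between the primed groups 8 of the 20 were higher and 0 lower, 2 higher under median-of-ratios scaling, 5 under quantile normalisation, and 3 to 5 higher without any single spleen-primed library, MLN-primed 1 or MLN-primed 2.

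Genes with the most similar profile were those with the smallest Euclidean distance to each gene over the 9 libraries, in log2(FPKM + 1) centred on each gene's mean, among tested genes without the 9 themselves and without predicted or clone names. Btg1 was closest to Tcp11l2, at a distance of 0.24, which was at 4.4 ± 0.314 FPKM in MLN-primed, 12.8 ± 1.59 FPKM in spleen-primed and 110 ± 4.87 FPKM in naive cells, and next to Scml4 (0.37). Btg2 was closest to Dusp10 (0.32) and Relb (0.34). Tdrp was closest to St6gal1 (0.36), at 0.272 ± 0.147 FPKM in MLN-primed, 0.395 ± 0.0679 FPKM in spleen-primed and 85.1 ± 5.77 FPKM in naive cells. Ccr7 was the closest to Fam101b (0.31), to Igfbp4 (0.68) and to Atp1b1 (0.76), but Fam101b itself lay nearer to Igfbp4 (0.57) and to Atp1b1 (0.64). Pecam1 was closest to Pacsin1 (0.48) and Zbtb4 (0.51), and Nsg2 to Il6ra (0.97) and Tcf7 (0.996). Dapl1 was closest to Tcf7 (1.71), while Nsg2 among the 9 lay nearer (1.20). The distances describe these libraries and have no test.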

How the data were processed

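TruSeq Stranded mRNA libraries were made from OT-I T cells, per the labels' protocols, in 3 groups of 3 taken from the sample titles. The deposited values are FPKM, made with TopHat and Cufflinks for mm10, as the submitters' processing notes name them. Tool versions and whether strand was used in counting are not stated there. Read depth cannot be had from these FPKM, and values carry no counting interval. A second deposited table was identical and not used. The 131 rows without a symbol held 0.0479% of the FPKM and were left out.

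Values were used as log2(FPKM + 1) without further scaling, a scale that understates changes of low genes. Genes that reached 1 FPKM in 3 or more libraries entered 1 limma-trend fit over all 9 libraries (limma 3.58.1, R 4.3.3; two-sided, Benjamini-Hochberg adjustment over 10185 genes, threshold 0.05). The fit was tested on simulated data with independent normal noise. That noise lacks the length trends and shared deviations of these libraries, so the simulation does not cover them. Counts of list genes are read beside those of all genes. The 9 genes, the lists and the tests were chosen with earlier results of these data known. Named list genes are at most 2 rises and 2 falls per list and comparison with 5 FPKM in the higher group, and relatives of the 9 genes; some that the rule names are not reported here. Transcript lengths came from GENCODE M21 (99.0% of tested genes matched), promoter sequences from RefSeq. Alternatives were another pseudocount and other filters, scalings, variance models and blocks, and left-out libraries; removal of the length trend was added after the data were seen. Python 3.11.15, numpy 2.4.6, pandas 2.3.3 and matplotlib 3.10.9 were used.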

Additional observations from a re-analysis of the deposited data

Results flagged for a closer look

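The response to priming, MLN-primed minus naive against spleen-primed minus naive, differed between the primed groups for 6 of the 9 genes, 4 lower and 2 higher in MLN-primed cells, where 13.1% of all tested genes were lower and 17.3% higher. The MLN-primed response also holds any difference between mesenteric lymph node and spleen. Since both responses share the naive libraries, the test of that difference is the MLN-primed minus spleen-primed contrast of the limma fit. The log2 differences were -1.48 for Dapl1, -1.23 for Btg1, -0.70 for Btg2 and -0.61 for Nsg2, and 0.60 for Igfbp4 and 0.42 for Fam101b.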

How the results depend on the processing

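The calls of Dapl1, Btg1, Btg2, Nsg2, Igfbp4 and Fam101b between the primed groups held under all 20 alternatives, with adjusted p from 3.78e-06 to 0.0486. The median difference of the 9 genes against naive moved with a pseudocount of 0.1 to -5.51 for MLN-primed and -5.50 for spleen-primed, with quantile normalisation to -5.19 and -5.40, and with median-of-ratios scaling to -4.96 for MLN-primed. Median-of-ratios scaling also moved the median of all tested genes from 0.15 to -0.01 in MLN-primed minus naive and from 0.10 to -0.01 in spleen-primed minus naive. The count of list genes higher in MLN-primed cells, set against spleen-primed ones, 14, was 7 under median-of-ratios scaling and 7 to 15 with single libraries left out (7 without MLN-primed 2 and 8 without spleen-primed 1). The count of all tested genes lower there, 1333, was 884 to 1389 with single libraries left out, lowest without spleen-primed 2. Among list genes against naive in MLN-primed cells, Dap turned to -0.35 and Ptpn6, the gene of a phosphatase that binds inhibitory receptors, to -0.24 under quantile normalisation, and Igf2r, which had not passed (-0.07), to 0.34 with the length trend removed; in spleen-primed cells Ptpn6 turned to -0.15 under quantile normalisation. The cause was not tested. The replicate number as a block kept all 6 calls and added Atp1b1 (0.43) and Pecam1 (-0.39). Deviations of same-numbered MLN-primed and spleen-primed libraries correlated at 0.645, -0.24 and 0.485, of MLN-primed and naive ones at 0.145, -0.241 and 0.116, and of spleen-primed and naive ones at 0.16, 0.116 and 0.236. Differently numbered libraries correlated at -0.698 to 0.512, -0.246 to 0.228 and -0.181 to 0.0567 in these 3 comparisons. In the last comparison alone all same-numbered values were over 0.1 and above all differently numbered ones. The numbers were therefore not taken to pair the libraries, which does not settle whether they do. In the last comparison the block left the list counts at 38 higher and 30 lower. FPKM without depth limit what can be said of values under 1 FPKM.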
